A study of Mus musculus with 4 samples.

Results

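Growth hormone and prolactin are both made in the anterior pituitary, and cells of the gland can themselves carry the receptors for them. The 7 genes described here are Ghr and Prlr, which encode the receptors, Jak2, Stat5a and Stat5b, which encode the kinase and the transcription factors below them, and Cish and Socs2, which encode feedback inhibitors. They were chosen by name as the genes through which Gh and Prl could act inside the gland, and all 7 were found among the 55357 genes of the deposited table, each under a single identifier. In GENCODE vM21 (GRCm38), Ghr (ENSMUSG00000055737) and Prlr (ENSMUSG00000005268) lie on chromosome 15 and Jak2 (ENSMUSG00000024789) on chromosome 19. Stat5a (ENSMUSG00000004043) and Stat5b (ENSMUSG00000020919) lie on chromosome 11, Cish (ENSMUSG00000032578) on chromosome 9 and Socs2 (ENSMUSG00000020027) on chromosome 10. Cells came from pituitaries of male mice, 2 libraries from animals given a high-fat diet (HFD) and 2 from animals given a normal diet (ND). Feeding began when they were 4 weeks old and went on for 12 weeks, and each sample pooled 3 pituitaries, as the labels state. No strain is named in the labels. The labels also give every library the cell line Lbt2 and the cell type gonadotroph, although the tissue is given as pituitary, and the cells held all the hormone-producing types of the gland.

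In mammals growth hormone and prolactin bind related cytokine receptors, which have no kinase activity of their own and carry JAK2. JAK2 phosphorylates the receptor and the STAT5 proteins, which move to the nucleus and bind DNA at a palindromic site. Cish and Socs2 are known targets of STAT5, and the proteins they encode bind the activated receptor and dampen it. Mice without Socs2 grow larger than normal, which is the best known sign of this brake on growth hormone action.

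The site bound by STAT5 is written TTCNNNGAA, where N is any base, and reads the same on both strands. It was searched for in RefSeq promoter windows (build GRCm38.p6) that run from 250 bases before the start site to 50 bases after it. A window was found for 6 of the 7 genes, with 11 windows in all, and Socs2 had none in the table. The site occurred in 2 of the 11 windows, against 8.30% of 32851 windows of the same length over 27025 genes. The windows that hold it, those of Cish and of a Prlr start site, are shown. Capitals mark the matches, and each window is read 5′ to 3′ on the gene's own strand.
Cish, chr9:107296409-107296708, plus strand: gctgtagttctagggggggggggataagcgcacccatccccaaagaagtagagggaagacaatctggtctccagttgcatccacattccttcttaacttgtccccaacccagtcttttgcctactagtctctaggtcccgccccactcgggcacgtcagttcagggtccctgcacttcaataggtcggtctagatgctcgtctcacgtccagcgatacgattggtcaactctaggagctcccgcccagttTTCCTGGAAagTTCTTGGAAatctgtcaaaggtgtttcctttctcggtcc
Prlr, the second of its 3 start sites, chr15:10223656-10223955, plus strand: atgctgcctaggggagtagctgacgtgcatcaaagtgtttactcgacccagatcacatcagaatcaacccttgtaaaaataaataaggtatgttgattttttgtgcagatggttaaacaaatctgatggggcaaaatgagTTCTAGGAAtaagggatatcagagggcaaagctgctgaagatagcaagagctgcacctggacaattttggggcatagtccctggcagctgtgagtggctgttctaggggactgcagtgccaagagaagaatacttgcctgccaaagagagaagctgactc
The Cish window held 2 matches, TTCCTGGAA from base 251 and TTCTTGGAA from base 262 of the window, counted from its first base, and base 251 is the first base after the start site as RefSeq gives it. A window with at least 2 matches was rare, at 0.457% of all windows. The Prlr match, TTCTAGGAA, began at base 141, which is 110 bases before the start site. A match is a run of letters in the reference and was not tested for binding in these cells.

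The matrix held 346690898 unique molecular identifiers (UMIs, 1 per captured transcript) in 40406 barcodes, and between 81621358 and 92665029 in each of the 4 sets that the number at the end of a barcode defines. Nothing ties a set to a library or a diet, so no HFD and ND comparison was made, no test was run, and the cells were described as 1 pooled sample with the value in each set beside the pooled value. Of 40249 barcode sequences, 156 occurred in more than 1 set. After a filter and the removal of 3638 called doublets (9.13%), 36201 cells remained. They were named from marker genes, which included none of the 7 members, and 3296 stayed unnamed. The classes used most below were somatotroph-like (13406 cells), lactotroph-like (8004), corticotroph-like (2802), stem or folliculostellate-like (2001), thyrotroph-like (942) and gonadotroph-like (738). Levels are UMIs of a gene scaled to a common total of all UMIs of its class (CPM), with 95% exact Poisson intervals that cover counting error only. The libraries read transcript 3′ ends without a correction for length, so levels are compared between classes for a gene and not between genes.

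Ghr, the growth hormone receptor, was highest in cells that make no pituitary hormone. Fibroblast-like cells held 55.8 CPM (95% interval 45.2 to 68.1, 97 UMIs), with 40.2, 57.3, 63.6 and 53.1 CPM in sets 1 to 4. In all 4 sets they led the 13 classes that had 20 or more cells per set. Pericyte or mural-like cells came next at 36.2 CPM, with 38.2, 36.7, 39.4 and 29.6 CPM in sets 1 to 4. The ranges of fibroblast-like and pericyte or mural-like cells did not overlap, and the pooled levels differed 1.54-fold (1.13 to 2.12). Pituicyte-like cells, the glial type of the neural lobe, had a pooled level of 69.4 CPM, but set 2 held only 7 of these 233 cells. Their level in that set was 19.8 CPM, from 1 UMI, against 64.2 to 85.2 CPM in the other sets.

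Among hormone cells the order of Ghr was led by thyrotroph-like cells, which make thyroid-stimulating hormone, at 29.1 CPM (25.2 to 33.5). Their sets held 31.2, 24.0, 33.2 and 32.8 CPM. Gonadotroph-like cells followed at 12.4 CPM (10.4 to 14.8), and melanotroph-like and corticotroph-like cells at 9.37 and 8.66 CPM. The cells that secrete growth hormone stood near the bottom. Somatotroph-like cells had 3.30 CPM (3.01 to 3.61), with 2.91, 2.97, 3.78 and 3.47 CPM in the sets, and lactotroph-like cells 1.06 CPM (0.815 to 1.36), with 1.25, 1.38, 1.24 and 0.304 CPM. Stem or folliculostellate-like cells, the progenitor and supporting cells of the anterior lobe, had 25.03 CPM, and endothelial-like cells 19.8 CPM. The T or NK cell-like class held a single Ghr UMI, 1 of 1195141. Of the 13 neighbouring pairs in the order of 14 classes, 3 did not overlap over the sets, namely fibroblast-like above pericyte or mural-like, corticotroph-like above somatotroph-like, and somatotroph-like above macrophage or microglia-like.

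Prlr, the prolactin receptor, had another pattern, with its highest levels in hormone cells. Gonadotroph-like cells, which make the gonadotropins, held 167 CPM (159 to 175), with 141, 162, 175 and 184 CPM in sets 1 to 4. Somatotroph-like cells held 148 CPM (146 to 149.8), with 142, 157, 147 and 146 CPM, and thyrotroph-like cells 142 CPM (133 to 151), with 136, 129, 154 and 162 CPM. The ranges of these 3 classes overlapped, and all 4 sets of each lay above every set of the corticotroph-like cells at 70.2 CPM. Lactotroph-like cells, the source of prolactin, held 61.9 CPM (59.9 to 63.9), with 68.7, 68.1, 52.4 and 59.9 CPM, and melanotroph-like cells 52.6 CPM. Prlr was thus 2.39-fold higher in somatotroph-like than in lactotroph-like cells (2.31 to 2.47), and higher in 4 of 4 sets.

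**Figure D1:**
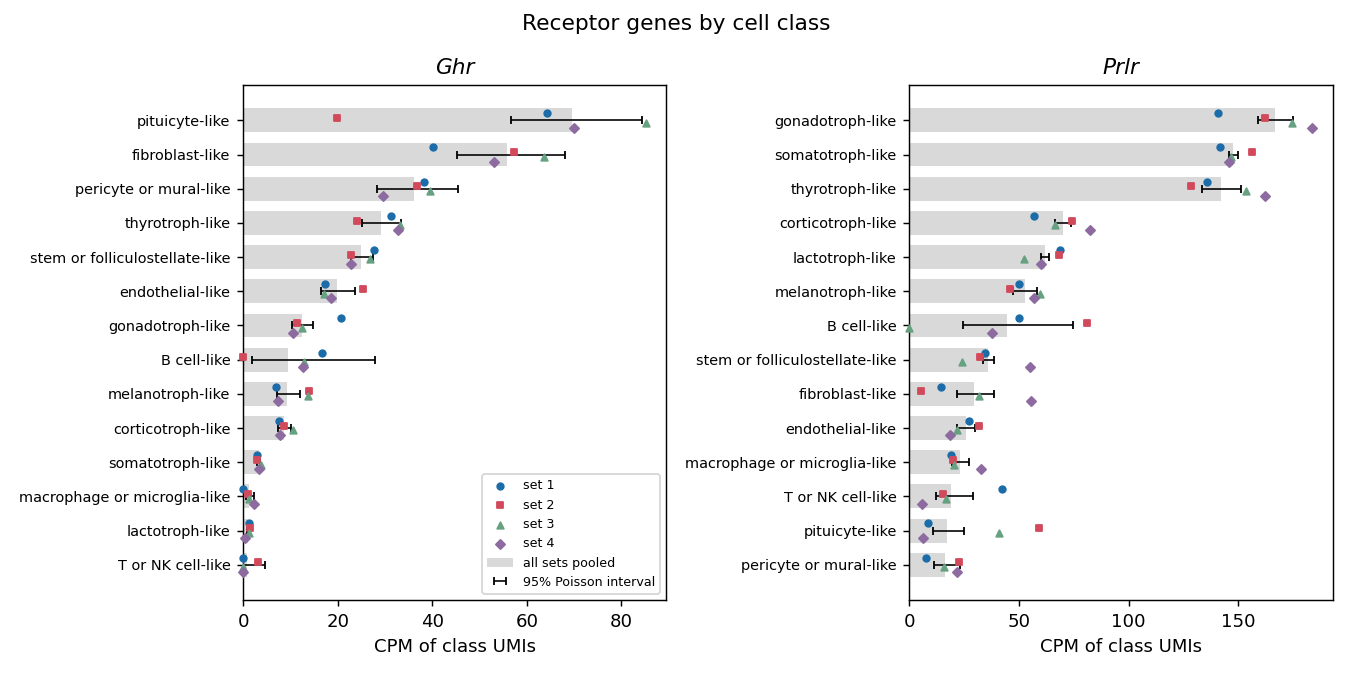
Ghr and Prlr by cell class, in CPM of the UMIs of each class. Bars are all sets pooled with 95% Poisson intervals and points are sets 1 to 4. Ghr runs from 69.4 CPM (pituicyte-like) down to 0.837 CPM (T or NK cell-like), while the top 3 classes for Prlr are gonadotroph-like, somatotroph-like and thyrotroph-like.

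The leading class for Prlr depended on how hormone transcripts were counted. The 7 hormone genes took 44.4% of the UMIs in somatotroph-like cells, against 13.9% in gonadotroph-like and 22.2% in lactotroph-like cells. Library sizes without hormone genes put somatotroph-like cells first, at 266 CPM, with 255 to 275 CPM over the sets. Gonadotroph-like cells then held 194 CPM and 167 to 213 CPM over the sets, below every somatotroph-like set. On that scale thyrotroph-like cells had 162 CPM and lactotroph-like cells 79.5 CPM.

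**Figure D2:**
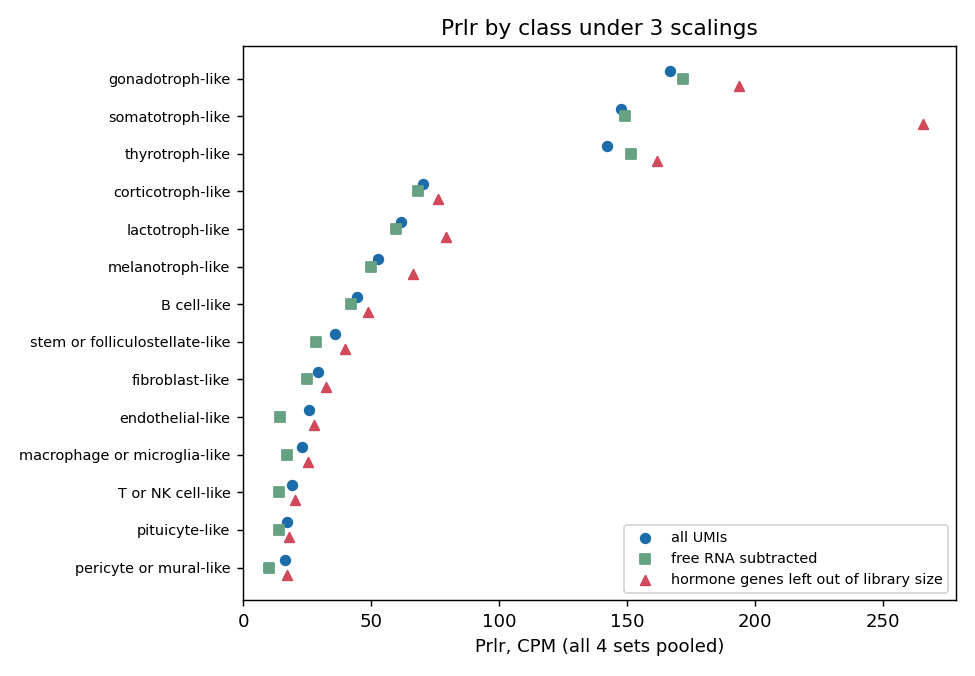
Prlr in each class, pooled over the 4 sets, in CPM of all UMIs, after subtraction of free RNA, and with the hormone genes left out of the library size. Only the last scaling moves somatotroph-like cells ahead of gonadotroph-like cells, at 266 against 194 CPM.

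Free RNA from broken cells can add transcripts to every class, and 2 estimates of it gave different shares of the Prlr seen outside the hormone cells. Every class of the order held Gh transcripts. They stood at 441435 CPM in somatotroph-like cells, and among the others stem or folliculostellate-like cells had most (87377 CPM) and lactotroph-like cells least (16872.5 CPM). A class whose Prlr came with its Gh in the somatotroph proportion would show 24.0 CPM in macrophage or microglia-like cells, where 23.1 CPM were measured. The observed level was 0.965 to 1.62 times that figure in all 8 classes of the order that make no pituitary hormone. The counting interval included 1 in 6 of these classes and lay above it in endothelial-like (1.57, interval 1.33 to 1.85) and stem or folliculostellate-like cells (1.25, interval 1.16 to 1.34). In the 5 other hormone classes the same ratio was far higher, at 20.2 in gonadotroph-like, 10.9 in lactotroph-like, 9.52 in corticotroph-like, 6.96 in melanotroph-like and 6.24 in thyrotroph-like cells. Thyrotroph-like cells carried the largest estimated share of free RNA, 23.1% of their UMIs, and Prlr stood at 152 CPM in them after its subtraction. Subtraction of free RNA, set by the hormone gene with the lowest ratio, left most of the Prlr in the other classes. It left 17.2 of 23.1 CPM in macrophage or microglia-like, 28.7 of 36.1 CPM in stem or folliculostellate-like, 25.05 of 29.3 CPM in fibroblast-like and 14.5 of 25.8 CPM in endothelial-like cells. Without their clusters of low depth, macrophage or microglia-like cells held 12.7 CPM and stem or folliculostellate-like cells 26.9 CPM. How much of the Prlr in these classes is their own cannot be told apart from free RNA with these values. For Ghr the somatotroph proportion would give 0.628 CPM in fibroblast-like cells, where 55.8 CPM were measured.

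The share of cells with a Prlr UMI followed depth as well as level. It was 74.3% in gonadotroph-like cells, which had a median of 14965 UMIs, and 68.9% in somatotroph-like cells (median 9993). In thyrotroph-like cells (median 6532.5) it was 471 of 942 cells. With each cell thinned to 1000 UMIs the shares were 14.0% in gonadotroph-like, 13.7% in somatotroph-like and 12.8% in thyrotroph-like cells, and their exact intervals overlapped (11.5% to 16.8%, 13.1% to 14.3% and 10.7% to 15.2%). In macrophage or microglia-like cells, with a median of 3664 UMIs, a class with little Prlr, the share was 5.68% before thinning and 1.72% after it. How much of that share is free RNA was not tested. For Ghr the thinned share was 6.51% (4.26% to 9.46%) in fibroblast-like and 3.34% (2.27% to 4.74%) in thyrotroph-like cells, against 0 of 1397 macrophage or microglia-like cells, for which the exact interval reaches 0.264%. Shallower cells were left out of the thinned shares, 51 gonadotroph-like, 183 somatotroph-like, 45 thyrotroph-like, 36 fibroblast-like and 292 macrophage or microglia-like cells.

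Jak2, the kinase that the receptors use, was measured in every class of the order. T or NK cell-like cells held 71.1 CPM (56.8 to 87.9, 85 UMIs), with 91.7, 49.5, 80.5 and 68.1 CPM in sets 1 to 4. Stem or folliculostellate-like cells followed at 55.7 CPM (52.4 to 59.1), above endothelial-like cells at 41.0 CPM in 4 of 4 sets. The lowest pooled levels were in lactotroph-like cells at 17.3 CPM and somatotroph-like cells at 17.1 CPM, whose ranges overlapped. Leaving hormone genes out moved somatotroph-like cells from the lowest place to the seventh, at 30.8 CPM.

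Stat5a, whose protein is best known from the mammary gland's response to prolactin, was also highest in T or NK cell-like cells, at 48.5 CPM (36.9 to 62.7, 58 UMIs). These held 35.3, 37.2, 46.6 and 70.9 CPM in sets 1 to 4 and led the 13 classes in each set. Pituicyte-like cells, which are not among those, were higher in set 1 alone, at 38.9 CPM. Corticotroph-like cells, which make the precursor of adrenocorticotropic hormone, held 33.2 CPM (30.8 to 35.8), and lactotroph-like cells 25.6 CPM (24.3 to 26.9). Somatotroph-like cells held 17.4 CPM (16.7 to 18.1), with 19.6, 16.8, 16.6 and 16.7 CPM, all below the lactotroph-like sets at 25.4, 31.0, 24.7 and 21.6 CPM. Stat5b, whose protein is best known as the mediator of growth hormone action in liver, was led by corticotroph-like cells at 59.5 CPM (56.2 to 63.0), with 50.2, 59.1, 66.6 and 63.6 CPM. T or NK cell-like cells were next at 55.2 CPM, and their range of 31.7 to 76.2 CPM contained that of the corticotroph-like cells. Without set 1 they led in place of the corticotroph-like cells. No neighbouring pair in the order of Stat5b was free of overlap, down to melanotroph-like cells at 24.0 CPM. The 2 STAT5 genes lie side by side in the genome and share some transcript sequence. In GENCODE vM21, 6.93% of the 50-base words in the last 500 bases of Stat5a transcripts also occur somewhere in Stat5b transcripts. The other way it was 15.5%. Reads from such words could be assigned to either gene or dropped, which was not tested.

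**Figure D3:**
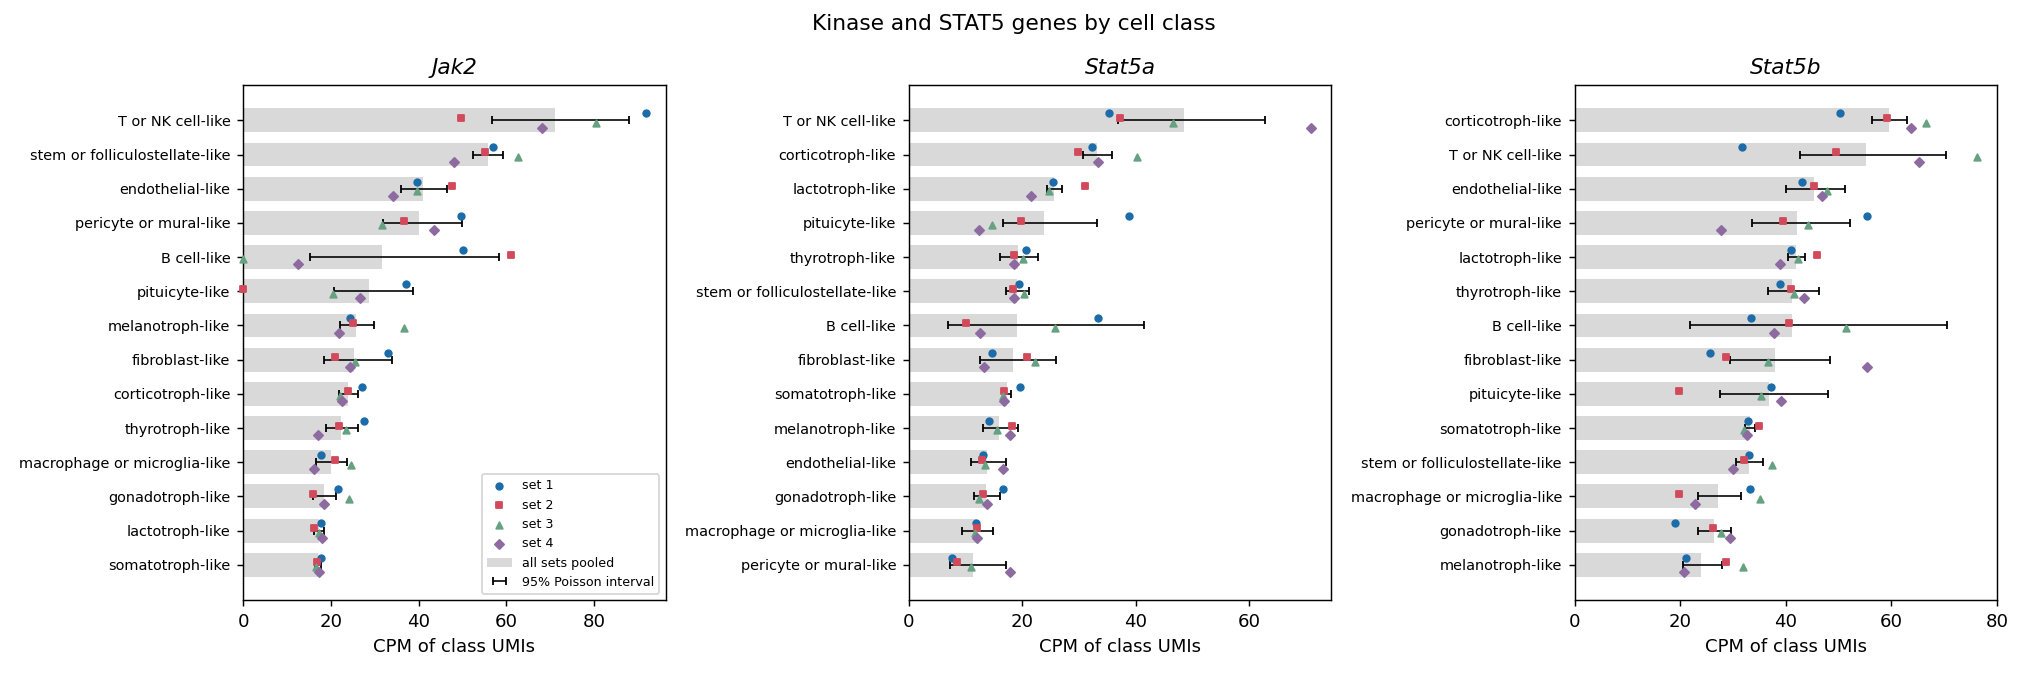
Jak2, Stat5a and Stat5b by cell class, in CPM of the UMIs of each class, with bars for all sets pooled, 95% Poisson intervals and points for sets 1 to 4. T or NK cell-like cells head Jak2 and Stat5a and corticotroph-like cells head Stat5b, at 59.5 CPM.

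Socs2, the inhibitor that limits growth hormone action, was highest in stem, mural, fibroblast and endothelial classes. Stem or folliculostellate-like cells held 338 CPM (330.1 to 346), with 345, 355, 351 and 293 CPM in sets 1 to 4. Pericyte or mural-like cells held 280.5 CPM, with 254, 200, 304 and 334 CPM, and fibroblast-like cells 272 CPM, with 263, 247, 302 and 254 CPM. Endothelial-like cells came next at 223 CPM and corticotroph-like cells at 186 CPM. Gonadotroph-like cells held 171 CPM (163 to 179) and thyrotroph-like cells 146 CPM (137 to 155). Both stood above somatotroph-like cells at 79.1 CPM (77.6 to 80.5) and lactotroph-like cells at 49.5 CPM (47.7 to 51.4). On the scale without hormone genes thyrotroph-like cells held 165 CPM and somatotroph-like cells 142 CPM, with overlap. Macrophage or microglia-like cells were lowest at 21.0 CPM, of which the somatotroph proportion of their Gh would give 12.5 CPM. Some Socs2 transcript ends hold words that recur in many other genes, 14.0% of the 50-base words in their last 500 bases, and reads there may have been dropped.

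Cish, the other inhibitor, had a different order. T or NK cell-like cells, in which CISH is known as a brake on cytokine and antigen receptor signalling, held 202 CPM (177 to 229, 241 UMIs). Sets 1 to 3 held 226, 254 and 216 CPM and set 4 held 125 CPM. Without set 4 the pooled level was 234 CPM. Endothelial-like cells followed at 161 CPM, stem or folliculostellate-like cells at 153 CPM, corticotroph-like cells at 149 CPM and pericyte or mural-like cells at 143 CPM, and each of these overlapped its neighbour. Thyrotroph-like cells held 102 CPM (94.4 to 109.7), with 120.4, 98.4, 97.7 and 95.4 CPM, above all sets of somatotroph-like cells at 70.0 CPM (68.7 to 71.4), which held 70.8, 71.2, 75.2 and 62.5 CPM. Library sizes without hormone genes reversed that order, with thyrotroph-like cells at 116 CPM and somatotroph-like cells at 126 CPM, and the ranges then overlapped. Gonadotroph-like cells, at the head of the order for Prlr, had 53.3 CPM of Cish (49.0 to 57.9). Lactotroph-like cells had 32.6 CPM (31.2 to 34.1), with 36.9, 38.6, 28.9 and 26.7 CPM. Fibroblast-like cells, high for Ghr and Socs2, were near the bottom for Cish at 25.3 CPM (18.4 to 34.0).

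**Figure D4:**
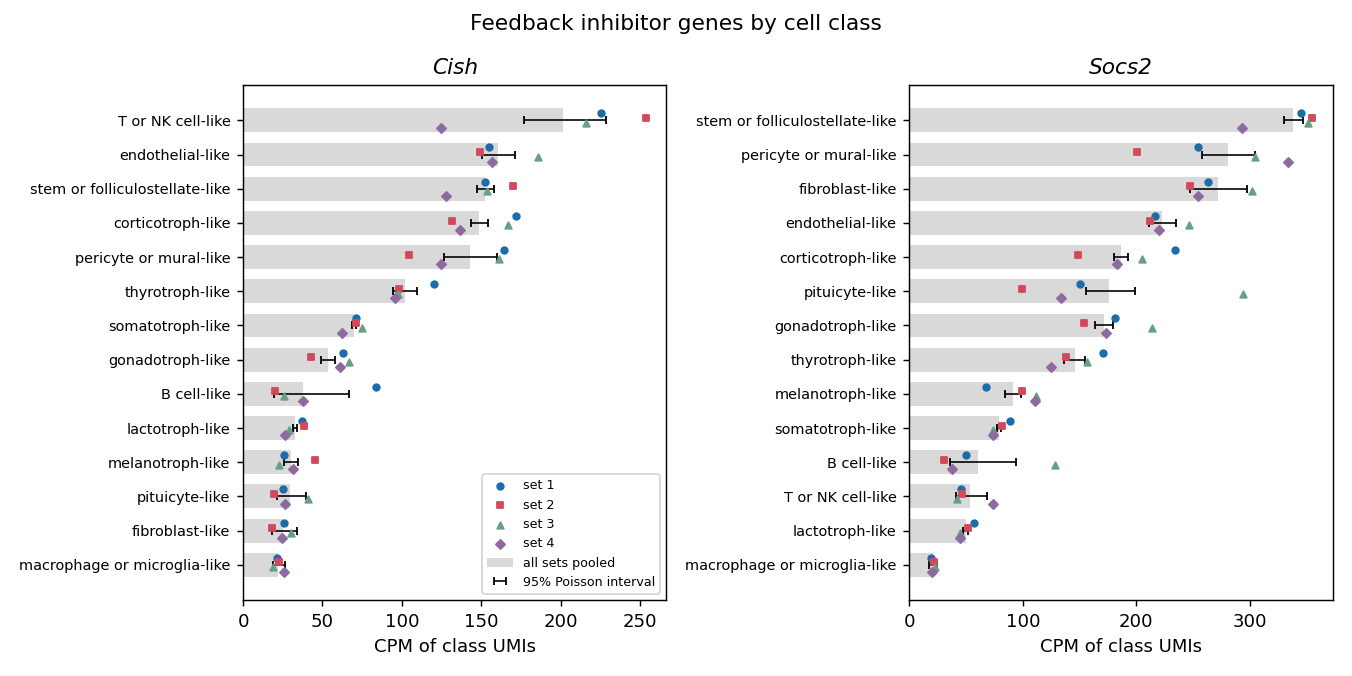
Cish and Socs2 by cell class, in CPM of the UMIs of each class, with bars for all sets pooled, 95% Poisson intervals and points for sets 1 to 4. Fibroblast-like cells hold 272 CPM of Socs2 but 25.3 CPM of Cish, whereas T or NK cell-like cells hold 53.6 CPM of Socs2 and 202 CPM of Cish.

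The genes were then set beside each other over the same 13 classes, as Pearson's r of log2(CPM + 1). These points share libraries, depth and free RNA, and the values are descriptions. Ghr and Socs2 had r = 0.87 over pooled sets, and 0.68 to 0.91 in single sets. Prlr had r = 0.02 with Socs2 and -0.13 with Cish, and single sets lay between -0.11 and 0.08 for the first pair and between -0.22 and 0.16 for the second. Prlr and Jak2 had r = -0.67 over pooled sets, but single sets ran from -0.67 to 0.55. Cish had r = 0.66 with Jak2 (0.41 to 0.67 in single sets), 0.62 with Stat5b (0.36 to 0.59) and 0.48 with Socs2 (0.39 to 0.57). Not every pair of members is given here. Stat5a and Stat5b had r = 0.66, but single sets ran from -0.00091 to 0.77.

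The classes that make growth hormone and prolactin were set side by side, since the ligand is nearest there. Over the 4 sets, Ghr, Prlr, Socs2 and Cish were each higher in somatotroph-like than in lactotroph-like cells without overlap, 4 of the 7 genes, while 11.4% of 20592 genes were. Pooled folds were 3.10 for Ghr (2.38 to 4.11), 2.39 for Prlr, 1.60 for Socs2 (1.53 to 1.66) and 2.14 for Cish (2.04 to 2.25). Stat5a and Stat5b were lower without overlap, as were 46.2% of all genes tested, and Jak2 overlapped. The median of all genes lay at -0.25 on the log2 scale and moved to 0.07 when hormone genes were left out of the library sizes. On that scale Ghr, Prlr, Socs2 and Cish were still higher, and Stat5b and Jak2 were higher too, which makes 6 of 7 against a background of 28.2%. Stat5b therefore changed its direction with the scale. Stat5a, at -0.07, overlapped, and no member was lower there, as 18.9% of genes were.

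Within the somatotroph-like class the feedback genes varied between clusters more than the receptors did. Of its 3 clusters, cluster 5 (4353 cells) was led by Ppp1r3c, Idi1, Lss and Hmgcs1, of which Idi1, Lss and Hmgcs1 encode enzymes of sterol synthesis. Cluster 2 (4586 cells) was led by Gh, Ceacam10 and Ghrhr. Cluster 8 (4467 cells) was led by the immunoglobulin light chain genes Iglc1 and Iglc3 and the protease gene Mmp8, with Gh and Ghrhr next. Cish stood at 110.1 CPM in cluster 5, with 111, 116, 115 and 99.7 CPM in sets 1 to 4. It stood at 56.7 CPM in cluster 2, with 61.7, 66.3, 53.2 and 46.3 CPM, and at 38.7 CPM in cluster 8, with 43.7, 42.2, 38.8 and 25.4 CPM. The order was the same in all 4 sets, and cluster 5 was 2.85-fold above cluster 8 (2.69 to 3.01). Socs2 stood at 99.2 CPM in cluster 5, against 73.6 CPM in cluster 2 and 61.8 CPM in cluster 8, 1.60-fold above the last (1.53 to 1.68). Prlr was at 153, 145 and 145 CPM in clusters 5, 2 and 8, and its ranges over the sets overlapped. Ghr was at 3.35 CPM in cluster 5, 3.50 CPM in cluster 2 and 2.98 CPM in cluster 8, also with overlap.

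Clusters were built from these same cells and genes, so their differences carry no test. Cish, Socs2 and Stat5a, 3 of the 7 genes, were higher in cluster 5 than in cluster 8 without overlap, as were 18.2% of 17780 genes, and the same 3 were higher than in cluster 2, as were 11.0% of 18167 genes. On the scale without hormone genes, Cish stood at 179 CPM in cluster 5 against 75.4 CPM in cluster 8, and Socs2 at 161 against 121 CPM. Prlr then stood at 249.01 CPM in cluster 5, against 272 CPM in cluster 2 and 282 CPM in cluster 8, below every set of the last. Cish, Socs2 and Stat5a were still above cluster 8 without overlap on that scale, with 7.61% of all genes, and Prlr and Stat5b below it, with 14.4%. Against cluster 2 that scale left Cish higher, with 3.62% of genes, and Stat5b lower, with 9.27%. Stress and immediate-early genes moved with the same clusters. Fos stood at 5702 CPM in cluster 5, against 2569 CPM in cluster 2 and 1118 CPM in cluster 8. Hspa1a, a heat shock gene, stood at 3011, 1332 and 431 CPM in the same order, and Socs3, a further inhibitor of the family that many cytokines induce, at 643, 215 and 83.0 CPM. The tissue had been digested at warm temperature before capture, and the part of that step in the levels of Cish and Socs2 was not tested.

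The lactotroph-like class held 2 clusters, which were compared in the same way. Cish stood at 45.0 CPM in cluster 3 (3478 cells), with 58.3, 47.8, 40.3 and 35.9 CPM in the sets. It stood at 20.7 CPM in cluster 0 (4526 cells), with 21.4, 29.0, 15.7 and 17.5 CPM. Cluster 3 was 2.18-fold higher for Cish (1.98 to 2.40) and 1.80-fold higher for Socs2 (1.67 to 1.95), both without overlap. These were 2 of the 7 genes, beside 13.7% of 17330 genes, and Stat5a overlapped. Both were also higher on the scale without hormone genes, as were 6.90% of genes. Prlr stood at 64.3 CPM in cluster 3 and 59.6 CPM in cluster 0, with overlap. Fos was 9868 CPM in cluster 3, against 3314 CPM in cluster 0. Prl itself was lower in cluster 3, at 163911 CPM against 242515 CPM, as Gh was in somatotroph-like cluster 5, at 382482 CPM against 463295 CPM in cluster 2 and 484815 CPM in cluster 8.

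**Figure D5:**
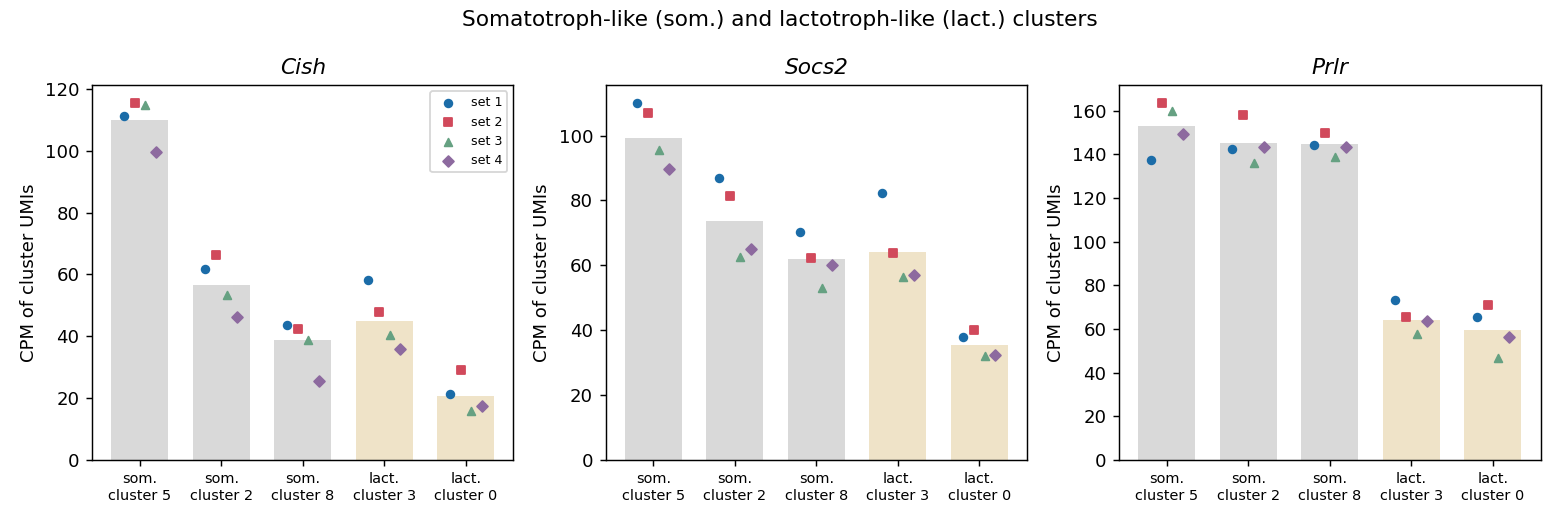
Cish, Socs2 and Prlr in the somatotroph-like clusters 5, 2 and 8 and the lactotroph-like clusters 3 and 0, in CPM of the UMIs of each cluster, with bars for all sets pooled and points for sets 1 to 4. Cish stands at 110.1, 56.7 and 38.7 CPM in clusters 5, 2 and 8, while Prlr stays between 145 and 153 CPM there.

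The feedback genes were also set beside the receptors within classes, in cells with and without a captured receptor transcript. In somatotroph-like cells Cish stood at 70.6 CPM in the 9232 cells with a Prlr UMI and at 68.1 CPM in the 4174 cells without one, a ratio of 1.04 (0.989 to 1.09). Socs2 stood at 78.9 CPM with a Prlr UMI and at 79.6 CPM without, a ratio of 0.991 (0.949 to 1.03). In gonadotroph-like cells the ratios were 0.929 (0.724 to 1.21) for Cish and 1.04 (0.898 to 1.20) for Socs2. Socs2 in thyrotroph-like cells stood at 125 CPM in 471 cells with a Prlr UMI and 181 CPM in 471 cells without, lower with the receptor in 4 of 4 sets, with median depths of 7971 and 5341 UMIs. Cish in the same cells had a ratio of 0.915 (0.784 to 1.07). For Ghr, fibroblast-like cells had 299.7 CPM of Socs2 in the 85 cells with a UMI and 262 CPM in the 335 cells without, a ratio of 1.14 (0.924 to 1.40). Cish stood at 18.9 CPM, from 8 UMIs, in the cells with a Ghr UMI and at 27.4 CPM in those without, a ratio of 0.689 (0.277 to 1.51). In pericyte or mural-like cells the ratios by Ghr were 1.26 (0.988 to 1.60) for Cish and 1.08 (0.911 to 1.28) for Socs2. Thyrotroph-like cells had ratios by Ghr of 0.993 (0.825 to 1.19) for Cish and 0.947 (0.809 to 1.10) for Socs2. Cells with a receptor UMI were deeper, with medians of 10952.5 against 7908.5 UMIs in somatotroph-like and 16360 against 2547.5 UMIs in gonadotroph-like cells, and a cell without a UMI may still express the receptor.

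A list of 63 other genes of the pathway, none of them a member, put these patterns beside their surroundings. A gene was said to lead in a class when that class, of the 13 used, had its highest CPM in all 4 sets with at least 20 UMIs. Of the members 2 of 7 did, Ghr in fibroblast-like and Stat5a in T or NK cell-like cells, while 33.7% of 16253 genes did, 3.28% with fibroblast-like and 3.70% with T or NK cell-like cells as the class. Without hormone genes in library sizes there were 3, with Prlr in somatotroph-like cells added, against 35.0% of all genes. On that scale 3.32% of genes led in T or NK cell-like, 3.09% in fibroblast-like and 3.22% in somatotroph-like cells. The median fold of the leading class over the next was 1.25 for the members and 1.23 for all genes. Of the 56 list genes with enough UMIs, 29 led in 1 class, and the median fold for the list was 1.44.

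The groups of that list differed in where they led. Both ligands led where their cells are defined by them, Gh 5.05-fold and Prl 10.3-fold over the next class. Of the other Janus kinases 2 of 2 tested led, Jak1 among them, and of the other STATs Stat4 led (2.499-fold over the next class), all in T or NK cell-like cells. None of 5 other SOCS genes led on all UMIs, and Socs3 led in stem or folliculostellate-like cells on the scale without hormone genes. Of the phosphatases and other inhibitors 2 of 11 led, Sirpa in macrophage or microglia-like (5.28-fold) and Ptprc in T or NK cell-like cells (3.06-fold). Of the adaptors 5 of 6 led, with Shc1 in fibroblast-like, Sh2b2 in endothelial-like and Irs2 in corticotroph-like cells, at 1.57-, 1.53- and 1.496-fold. Of 11 STAT5 target genes 7 led, with Osm and Mcl1 in macrophage or microglia-like cells (29.2-fold and 1.68-fold) and Ccnd1 in stem or folliculostellate-like cells (1.61-fold). Of 14 other receptors that use JAK2 or STAT5, 9 led, with Il2rb in T or NK cell-like (280.3-fold) and Csf3r and Csf2rb in macrophage or microglia-like cells (57.1-fold and 21.8-fold). Csf3r was also a naming marker of neutrophils, which were too few for the rule.

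The genes whose levels over the 13 classes were most like each member were taken as the 3 with the highest r among 14668 genes with at least 500 UMIs. For Ghr they were Mast2 (r = 0.96), Ndrg2 and Tmx3 (0.92 and 0.91). For Prlr they were Kif5c (0.97), Slc7a14 (0.96) and Ogdhl (0.95), each highest in gonadotroph-like cells. For Socs2 they were Vcl (0.94), Gm42929 (0.93) and Emp2 (0.91), and for Cish they were Mbd2 (0.85), Rbm12 (0.84) and Hif1a (0.83). For Stat5a they were Rfxap (0.88), Prkca and Crebzf (0.87 each), for Stat5b Zc3h11a (0.84), Gstcd (0.83) and 4930577N17Rik (0.80), and for Jak2 Nab1 and Vgll4 (0.94 each) and Ptbp1 (0.92). For most of these pairs r was lower in every single set than over pooled sets. Ghr and Mast2 had r from 0.24 to 0.77 in single sets, and Prlr and Kif5c from 0.36 to 0.86. Jak2 and Ptbp1 ran from -0.01 to 0.88, Cish and Rbm12 from -0.01 to 0.74, and Socs2 and Emp2 from 0.85 to 0.92.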

How the data were processed

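All libraries share 1 deposited matrix of raw UMI counts, written by Cell Ranger 8.0.1, per the file headers. Per the submitters' processing notes, Seurat is also named, with no role or version. Neither genome build nor annotation is stated (not given in the sources used here). Barcodes with under 500 UMIs, under 250 genes or over 25% mitochondrial UMIs were removed (567). Scrublet, from scanpy 1.11.5, called doublets at a score of 0.22, chosen after the automatic threshold had failed. Leiden clustering at resolution 1.0 (igraph 0.11.9), with 15 neighbours in 30 principal components of 2000 variable genes, gave 26 clusters. A cluster was named where 3 or more markers passed a log2 fold of 0.5 and were detected in 25% of its cells, thresholds set after seeing the data. "X-like" names are rebuilt here, and differences between classes may come from that.

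Free RNA was estimated per class and set as the lowest ratio of Gh, Prl, Pomc or Cga to the whole set's profile, and that profile was subtracted. The 7 genes are named in every class used, of the pathway list up to 3 genes per group that led with at least 100 UMIs (1 such gene is not reported here), and of the most alike genes the first 3. The rule that a gene leads in a class was also applied to all genes with enough UMIs, which gave its background share. The members and lists were chosen with earlier results of these data known. Overlapping genes could share reads: Prlr overlaps Gm21973 on its strand, and Cish and Stat5a overlap genes on the other strand. Scripts ran in Python 3.11.15 with pandas 2.3.3, scipy 1.17.1, numpy 2.4.6 and matplotlib 3.10.9.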

Additional observations from a re-analysis of the deposited data

How the results depend on the processing

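Of 70 recomputed levels of the 7 genes in their leading classes, 58 moved by less than the spread over the sets and 12 by more. With doublets kept, the levels were 43.3 CPM for Ghr, 156 for Prlr, 295 for Socs2, 155 for Cish and 52.0 for Jak2, all lower than without them. Leaving hormone genes out of library sizes raises every gene of a class: Prlr in gonadotroph-like cells was 194 CPM, Socs2 375 and Stat5b 64.7, and Prlr then led in somatotroph-like cells. Free RNA subtraction gave 362 CPM for Socs2. An alternative chosen after seeing the data left out the clusters with a median under 1000 UMIs, and Socs2 was then 368 CPM. The stricter cell filter and resolution 0.5 moved none of the 7 levels out of the counting interval. Leaving out each set in turn gave 51.4 to 58.7 CPM for Ghr, 162 to 171 for Prlr, 331 to 350.5 for Socs2, 182.3 to 234 for Cish, 39.2 to 52.7 for Stat5a, 57.7 to 62.3 for Stat5b and 64.7 to 79.1 for Jak2, each in the class that led with all sets, and 28 to 33 pathway genes that lead in 1 class. Without set 1 the leading class for Stat5b was T or NK cell-like in place of corticotroph-like. Depth limits small classes: Ghr rested on 1 UMI in the T or NK cell-like class and on 3 in the B cell-like class. Thinning lowered the share of cells with a UMI for all 7 genes in their leading classes. No paired analysis was possible because the barcode numbers name no library, and the planned diet test with and without its replicate block was not run for the same reason.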

Other observations

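Igf1, the main growth factor that growth hormone induces in liver, was measured as a further STAT5 target. It stood at 131 CPM in fibroblast-like cells, 93.6 CPM in macrophage or microglia-like cells and 64.9 CPM in pericyte or mural-like cells. Somatotroph-like cells held 11.4 CPM of Igf1, from 1635 UMIs, and lactotroph-like cells 0.429 CPM, from 25 UMIs. Within the somatotroph-like class Igf1 stood at 11.7 CPM in cluster 5, 11.3 CPM in cluster 2 and 11.3 CPM in cluster 8, with ranges over the sets that overlapped. Socs3 was highest in stem or folliculostellate-like cells at 1380 CPM, with endothelial-like and pericyte or mural-like cells at 1006 and 1002 CPM and gonadotroph-like cells lowest at 136 CPM.

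Transcripts of the genes were also counted in cells outside the order of classes. Proliferating cells (81) held 85.5 CPM of Prlr, 67.1 CPM of Socs2 and 59.7 CPM of Cish. The somatotroph proportion of their Gh would give 58.0, 31.2 and 27.4 CPM of these genes. How much of the levels is free RNA was not tested. The 34 neutrophil-like cells held 10 UMIs of Cish and none of Ghr. The 3296 unnamed cells held 146 CPM of Prlr and 4.76 CPM of Ghr. Stem or folliculostellate-like cells were 2 clusters of unequal depth, one with a median of 943 UMIs and one with 9031.5. Prlr stood at 100.5 CPM in the shallow cluster and 26.9 CPM in the deep one, and hormone genes took 34.3% of the UMIs in the shallow cluster and 6.25% in the deep one.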
